A study of Mus musculus with 6 samples.

Results

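Respiratory complex I (NADH:ubiquinone oxidoreductase) transcripts were taken from the expression table of EO771 cells by name: every gene whose symbol begins with Nduf or mt-Nd. The rule found 54 of the 19832 genes in the table. Of these, 37 are nuclear subunits, 17 in the matrix arm and 20 in the membrane arm. They include Ndufb1-ps, which GENCODE M21 annotates as a non-coding RNA of a bidirectional promoter. A further 8 are assembly factors of the Ndufaf series, which help to build the complex and are not part of it, and 7 are the mRNAs of the subunits encoded in mitochondrial DNA (mtDNA). The remaining 2 carry the name only: Ndufa4, now placed in cytochrome c oxidase, and its relative Ndufa4l2, which was listed at 0 in every library. EO771 is a mouse mammary tumour line. The study compared 3 libraries labelled Control with 3 libraries of cells given recombinant lipocalin-2 (LCN2), a secreted iron-siderophore binding protein. All 6 came from the same cell line, and the labels name no dose, exposure time, genotype change or batch. Nothing in the labels says that replicates were separate cultures, so p-values measure the spread between these libraries, which may be partly technical.

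Complex I is the entry point of the respiratory chain. Its matrix arm takes electrons from NADH and passes them along iron-sulphur clusters to ubiquinone, and its membrane arm pumps protons across the inner membrane. The core of the membrane arm is encoded in mtDNA and the rest of the enzyme in the nucleus, so the complex is assembled from the products of both genomes.

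Values are FPKM (fragment counts divided by the length of the transcript and the size of the library), a unit that was inferred from the table and is not stated in it. Column sums were 391569 to 410808 FPKM, read depth is unknown, and the 13 mtDNA mRNAs made up 8.82% to 9.03% of each sum. Tests used limma on log2(FPKM + 1) after TMM scaling (trimmed mean of M-values, which removes a common shift between libraries), and a gene was called at a Benjamini-Hochberg adjusted p under 0.05. Keratins of the epithelial list summed with its other genes to 1240 to 1340 FPKM, all 5 mast cell markers in the table were listed at 0, and the 3 endothelial markers summed to at most 0.66 FPKM. Cdh1 and Pgr, also on the epithelial list, averaged 0.14 and 0 FPKM in the controls. The leukocyte list summed to 9.24 to 11.0 FPKM, mostly Cd68.

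The table holds rows in more than 1 number format, and the format went with the size of the difference between the groups. In 1170 rows at least 1 value had more than 7 significant digits, with 6 decimals; the rest kept to 7 or fewer. Of those 1170 genes, 84.9% were called and the groups did not overlap in 94.5%. Among the other 5276 tested genes that reached 10 FPKM in some library, the level at which the formats can be told apart, 13.8% were called and 40.5% did not overlap. By size, the long format was found in 0.111% of 2694 such genes with an absolute log2 fold change under 0.1 and in 83.6% of 286 at 0.5 or above. How these rows came to be written differently is not given in the sources used here, and whether their values were made in the same way as the others was not tested. Ndufa5, Ndufa8, Ndufb10 and Ndufv3 are in the long format. No other member that reached 10 FPKM is, and 4 members stayed under that level.

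The mtDNA-encoded members lie on the circular mitochondrial genome in the order mt-Nd1, mt-Nd2, mt-Nd3, mt-Nd4l, mt-Nd4, mt-Nd5 and mt-Nd6, the last of them on the opposite strand. The starts of mt-Nd1, mt-Nd2 and mt-Nd5 are shown because the results turn on these mRNAs, with the first codon in capitals (GENCODE M21 transcripts, GRCm38, 5′ to 3′).
mt-Nd1, first 30 bases: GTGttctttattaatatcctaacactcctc
mt-Nd2, first 30 bases: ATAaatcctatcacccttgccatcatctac
mt-Nd5, first 30 bases: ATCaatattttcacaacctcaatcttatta
In the annotation mt-Nd1 runs from base 2751 to 3707 of the mtDNA, mt-Nd2 from 3914 to 4951 and mt-Nd5 from 11742 to 13565, and each is a single exon. The ends of 2 overlapping pairs are shown because fragments there can belong to either gene, with the last codon in capitals for the ends and the first codon for the start.
mt-Nd4l, last 30 bases: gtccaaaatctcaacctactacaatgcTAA
mt-Nd4, first 30 bases: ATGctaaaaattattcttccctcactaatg
mt-Nd5, last 30 bases: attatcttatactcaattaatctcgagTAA
mt-Nd6, last 30 bases: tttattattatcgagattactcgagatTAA
The final 7 bases of mt-Nd4l are the opening bases of mt-Nd4. The ends of mt-Nd5 and mt-Nd6 share 14 bases on opposite strands. The labels and the table do not say whether counting used strand or how it treated mtDNA copies in the nuclear genome.

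Transcripts from the mtDNA stood far above the nuclear ones in FPKM, a level per length. The mean over the 6 libraries was 512 to 4280 FPKM for the 7 mt-Nd mRNAs, at least 14.3 FPKM for the 37 nuclear subunits, with a median of 49.9 FPKM, and 3.61 to 24.8 FPKM for the 8 assembly factors. The order among the mt-Nd mRNAs began with mt-Nd1 and mt-Nd2 and ended with mt-Nd3. In the controls mt-Nd4l (971 to 1034 FPKM) and mt-Nd5 (926 to 1020 FPKM) overlapped in level, as did mt-Nd2 and mt-Nd4 in the LCN2 libraries.

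**Figure D1:**
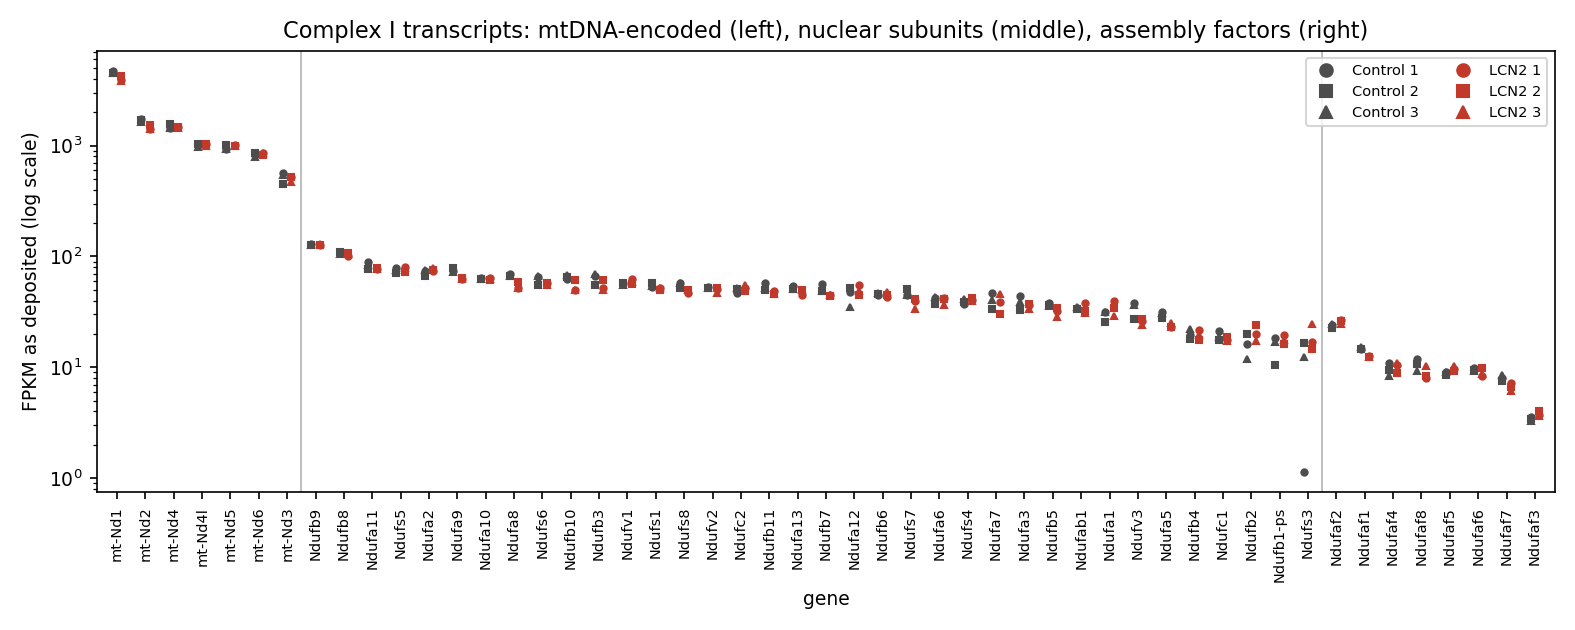
FPKM as deposited (vertical log axis) for the complex I transcripts (horizontal axis, 1 nuclear subunit not shown), with the mtDNA-encoded mRNAs at the left, nuclear subunits in the middle and assembly factors at the right. Grey points are control libraries and red points LCN2 libraries, with a symbol for each replicate number. The single low point of Ndufs3 is Control 1, at 1.14 FPKM.

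With LCN2, most complex I transcripts showed no called difference. Of 53 members tested, 4 were called: Ndufa9, Ndufa8 and Ndufa5 were lower and mt-Nd5 was higher. Over all 10309 genes tested 21.5% were called, 11.8% higher and 9.73% lower. The members' own share was 7.55%, below that background. Groups did not overlap after scaling in 16 of 53 members (30.2%), against 44.5% of all genes tested. Of all calls 45.3% were falls after TMM scaling and 70.8% with the values as deposited, so the split by direction depends on the scaling.

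Nuclear subunits were divided evenly by sign. Of 37 tested, 19 had positive and 18 negative log2 fold changes, with a median of 0.01 beside 0.00 over all genes tested. With the values as deposited, 11 were positive and 26 negative. The test called 3 lower (8.11%, against 9.73% of all genes) and 0 higher. At an unadjusted p under 0.05 there were 2 positive and 5 negative, beside 39.1% of all genes in either direction. Groups did not overlap in 6 of 37 (16.2%). A refit without all 1170 long-format rows called 1 of the 33 nuclear subunits that remained, Ndufa9, and 6.72% of the 9139 genes in it. Ndufa5 and Ndufa8 are among the rows it left out, so the lower count follows largely from its construction.

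In the matrix arm, the NADH-oxidizing module held no called gene among 11 and the ubiquinone module 2 among 6, both lower (33.3%, against 9.73% of all genes called lower). Ndufa9, an accessory subunit of the ubiquinone module that binds a nucleotide, had 74.0, 79.3 and 71.7 FPKM in the controls and 62.6, 64.4 and 62.8 FPKM with LCN2. Every LCN2 library was below every control. The log2 fold change was -0.18 (SE 0.04, limma adjusted p = 0.019), 11.7% lower after scaling. Its row is in the common number format, and 67 of its exon bases are shared with an antisense gene. The call was lost when Control replicate 1 or 3, or LCN2 replicate 1 or 3, was left out, with adjusted p of 0.057 to 0.082.

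Ndufa5, a small accessory subunit of the same module, was the other call in the matrix arm. Its values were 31.3, 28.1 and 30.9 FPKM in the controls and 23.3, 23.3 and 25.1 FPKM with LCN2, with no overlap. The difference was -0.26 on the log2 scale (SE 0.07, limma adjusted p = 0.042). This row is in the long number format, which went with large differences throughout the table, so the call rests on a row whose origin was not tested. It was also lost with any one of Control replicates 1 and 3 and LCN2 replicates 1, 2 and 3 left out (adjusted p of 0.073 to 0.13).

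Ndufs7 carries the iron-sulphur cluster nearest to ubiquinone. It had 44.6, 51.3 and 45.1 FPKM in the controls and 40.0, 40.9 and 33.5 FPKM with LCN2. The groups did not overlap, but the difference of -0.23 (SE 0.07) did not pass in limma, at an adjusted p of 0.061. It passed with the values as deposited (-0.30, adjusted p = 0.040) and without LCN2 replicate 2 (-0.28, adjusted p = 0.039). Ndufv3, an accessory subunit of the flavoprotein part, had the most negative log2 fold change of the nuclear subunits, -0.31 (SE 0.14, limma adjusted p = 0.14). Its controls were 38.0, 27.4 and 36.8 FPKM and its LCN2 libraries 26.1, 27.4 and 24.3 FPKM, so Control 2 overlapped the LCN2 group. This row too is in the long format. Without Control replicate 2 the value was -0.48 with an adjusted p of 0.014. Ndufv1, which holds the flavin that accepts electrons from NADH, had 57.1, 57.7 and 54.8 FPKM in the controls and 62.1, 56.6 and 58.7 FPKM with LCN2 (log2 fold change 0.13, SE 0.05, limma adjusted p = 0.10, and 0.035 without LCN2 replicate 2).

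Ndufs3, a core subunit of the ubiquinone module, varied more among controls than any other member. Control 1 had 1.14 FPKM, against 16.5 and 12.5 FPKM in the other controls and 16.8, 14.7 and 24.4 FPKM with LCN2. The log2 fold change of 1.33 (SE 0.70) did not pass in limma, at an adjusted p of 0.20, and it was 0.39 (adjusted p = 0.24) without Control replicate 1. The highest control was 14.5 times the lowest, against 1.78 times for the next member in this measure, Ndufb1-ps. Ndufs3 shares 88 exon bases with Kbtbd4 on the opposite strand.

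In the membrane arm 1 of 20 nuclear subunits was called, as lower (5.0%, against 9.73% of all genes called lower). Ndufa8, a cysteine-rich subunit on the intermembrane-space face, had 69.0, 67.2 and 66.5 FPKM in the controls and 51.7, 58.9 and 52.4 FPKM with LCN2. All LCN2 libraries were below all controls, with LCN2 2 nearest to them. On the log2 scale LCN2 minus control was -0.25 (SE 0.06, limma adjusted p = 0.024). Like Ndufa5, this gene is a long-format row. The call was lost without Control replicate 1 or 3, or LCN2 replicate 1 or 3 (adjusted p of 0.076 to 0.094).

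Ndufb10, another subunit of that face and also a long-format row, did not pass. It had 62.9, 65.5 and 67.6 FPKM in the controls and 49.5, 61.4 and 50.3 FPKM with LCN2. The groups were apart as deposited but overlapped after scaling, through LCN2 2. The log2 fold change was -0.22 (SE 0.08, limma adjusted p = 0.082), and without LCN2 replicate 2 it was -0.31 with an adjusted p of 0.0065. Ndufb2, of the distal membrane arm, had 16.1, 20.0 and 12.0 FPKM in the controls and 19.8, 24.0 and 17.2 FPKM with LCN2. Its difference of 0.40 (SE 0.16, limma adjusted p = 0.12) lay within overlapping groups, and 145 of its exon bases are shared with a second gene on its own strand.

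Of the 5 nuclear subunits with the most negative log2 fold change (Ndufv3, Ndufa5, Ndufa8, Ndufs7 and Ndufb10), 4 are long-format rows. Their log2 fold changes ran from -0.31 to -0.22. Among tested genes that reached 10 FPKM, the long format held 37.2% of 964 with an absolute log2 fold change from 0.2 to 0.3. From 0.3 to 0.5 it held 80.5% of 657. Among the 3 called nuclear subunits, 2 are in that format and 1 is not, beside 993 of the 2216 calls over all genes.

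**Figure D2:**
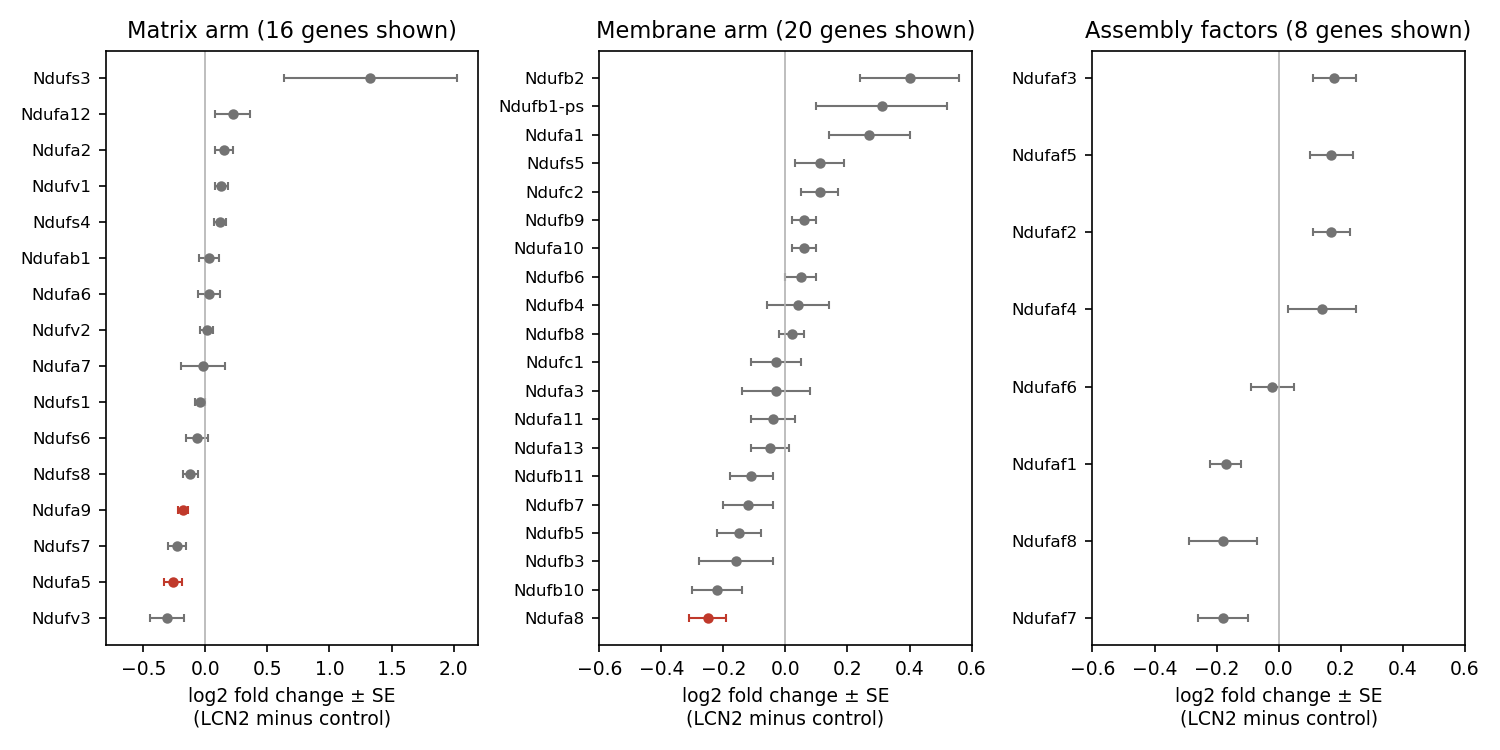
Log2 fold change (LCN2 minus control, log2(FPKM + 1) scale after TMM scaling, bars ± SE) of the nuclear subunits of each arm and of the assembly factors, ordered within each panel, with 1 matrix arm subunit not shown. Red points are called genes, and the matrix arm panel has a wider horizontal axis than the other panels. The called genes are Ndufa9 at -0.18, Ndufa5 at -0.26 and Ndufa8 at -0.25, and Ndufs3 lies at 1.33 with an SE of 0.70.

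Promoter sequences are shown for the 3 called nuclear subunits (RefSeq, GRCm38.p6, 250 bases before to 50 after the start, 5′ to 3′ on the gene's strand). Capitals mark matches to motifs searched on both strands, where matches may overlap one another.
Ndufa5: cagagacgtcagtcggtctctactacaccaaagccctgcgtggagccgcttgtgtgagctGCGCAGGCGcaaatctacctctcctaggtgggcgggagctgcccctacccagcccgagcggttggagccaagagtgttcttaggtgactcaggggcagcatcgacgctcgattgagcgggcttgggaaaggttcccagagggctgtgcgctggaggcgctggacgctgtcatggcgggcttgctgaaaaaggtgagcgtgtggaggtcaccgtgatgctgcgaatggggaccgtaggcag
Ndufa8: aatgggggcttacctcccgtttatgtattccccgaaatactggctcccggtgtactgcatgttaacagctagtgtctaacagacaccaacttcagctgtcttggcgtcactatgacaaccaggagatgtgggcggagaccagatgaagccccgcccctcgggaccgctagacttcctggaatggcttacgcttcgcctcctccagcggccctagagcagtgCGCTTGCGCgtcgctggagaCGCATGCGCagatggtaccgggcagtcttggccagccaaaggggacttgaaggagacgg
Ndufa9: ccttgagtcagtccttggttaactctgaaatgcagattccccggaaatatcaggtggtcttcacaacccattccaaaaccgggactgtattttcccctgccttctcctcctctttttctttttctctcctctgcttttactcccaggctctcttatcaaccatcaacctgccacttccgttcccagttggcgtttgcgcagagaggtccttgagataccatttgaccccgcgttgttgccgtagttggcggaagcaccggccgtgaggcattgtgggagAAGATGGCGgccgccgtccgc
They lie at chr6:24527477-24527776, chr2:36049289-36049588 and chr6:126849095-126849394, all on the minus strand. The capitals are matches to GCGCANGCG, the motif of NRF1, a regulator of respiratory genes, once in Ndufa5 and at 2 positions in Ndufa8, and to AANATGGCG, that of YY1, once in Ndufa9. Promoters were found for 39 of the 45 nuclear subunits and assembly factors. The NRF1 motif was in 25.6% of them, against 6.47% of all 27025 promoters and 15.5% of those of tested genes. The YY1 motif was in 17.9%, against 2.51% and 6.06%. CCGGAAG, an ETS and GABP core, was in 15.4%, against 9.12% and 20.8%. TGATGNAA, the joint CHOP and ATF4 motif, was in 0 of 39, against 4.06% and 2.16%. These are counts of letters, and binding was not measured.

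None of the 8 assembly factors was called by limma, beside 21.5% of all genes tested. An unadjusted p under 0.05 was found for 4 of 8, 3 positive and 1 negative, beside 39.1% of all genes. The signs were even, 4 each way. The median was 0.06, and groups did not overlap in 4 of 8, beside 44.5% of all genes, so both counts are near the background. Ndufaf1 helps to build the mt-Nd2 part of the membrane arm. It had 14.6, 14.5 and 15.3 FPKM in the controls and 12.5, 12.4 and 12.5 FPKM with LCN2, a separation with a difference of -0.17 (SE 0.05, limma adjusted p = 0.064). Its adjusted p was 0.024 with the values as deposited, 0.037 with column sums and 0.049 without Control replicate 2.

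Ndufaf2, a factor of late assembly, had 24.2, 22.7 and 24.6 FPKM in the controls and 26.6, 26.1 and 24.8 FPKM with LCN2 (log2 fold change 0.17, SE 0.06, limma adjusted p = 0.078). It shares 1955 exon bases with a non-coding gene on the other strand. Ndufaf3, which acts early on the ubiquinone module, had 3.53, 3.40 and 3.25 FPKM in the controls and 3.74, 4.04 and 3.67 FPKM with LCN2 (log2 fold change 0.18, SE 0.07, limma adjusted p = 0.087). In both genes the groups did not overlap.

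The mt-Nd mRNAs did not move as one. After scaling, mt-Nd1 and mt-Nd2 were the 2 with negative differences and the other 5 were positive, with mt-Nd5 called. As deposited, 3 were positive and 4 negative, so the signs of the small differences depend on the scaling. Groups did not overlap in 5 of 7, beside the 44.5% of all genes. Of the 7, 1 was called (14.3%, against 11.8% of all genes called higher).

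mt-Nd5 encodes a proton-pumping subunit at the far end of the membrane arm. It had 926, 1020 and 939 FPKM in the controls and 1007, 989 and 999 FPKM with LCN2. As deposited the groups overlapped, with Control 2 the highest library. After scaling the controls were 98.4%, 102% and 99.5% of their mean and the LCN2 libraries 110%, 106% and 109%, with no overlap. The log2 fold change was 0.12 (SE 0.03, limma adjusted p = 0.041). That call depended on the scaling and was absent with column sums. The value was 0.05 as deposited (adjusted p = 0.38) and 0.03 with quantile normalization (adjusted p = 0.57). The call was also lost without Control replicate 1 or 3 or LCN2 replicate 1 or 3 (adjusted p of 0.12 to 0.15).

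mt-Nd1, which sits at the junction with the matrix arm, had 4714, 4551 and 4487 FPKM in the controls and 3878, 4248 and 3778 FPKM with LCN2. Every LCN2 library was lower as deposited, and after scaling Control 2 (95.4% of the control mean) met LCN2 2 (95.7%). The difference was -0.15 (SE 0.05, limma adjusted p = 0.077). mt-Nd2, a proton-pumping subunit of the membrane arm, had 1727, 1686 and 1631 FPKM in the controls and 1422, 1541 and 1395 FPKM with LCN2. The groups were apart on both scales, with a difference of -0.15 (SE 0.05, limma adjusted p = 0.059). Neither passed in the main fit. Both passed with the values as deposited (-0.21 each, limma adjusted p = 0.017 and 0.015) and with column sums. Both also did without LCN2 replicate 2 (adjusted p = 0.028 and 0.024), and mt-Nd2 alone with quantile normalization.

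The other mt-Nd mRNAs, also proton-channel or neighbouring membrane subunits, differed less. mt-Nd6 had 814, 861 and 790 FPKM in the controls and 851, 815 and 852 FPKM with LCN2 (log2 fold change 0.10, SE 0.04, limma adjusted p = 0.10, and 0.032 without LCN2 replicate 2). mt-Nd4l had 1004, 1034 and 971 FPKM against 1026, 1026 and 982 FPKM (0.08, SE 0.03, adjusted p = 0.13). mt-Nd4 had 1431, 1560 and 1424 FPKM against 1457, 1465 and 1426 FPKM (0.04, SE 0.03, adjusted p = 0.34). These 3 overlapped as deposited and separated after scaling. mt-Nd3 had 569, 453 and 539 FPKM against 516, 523 and 471 FPKM (0.02, SE 0.10, adjusted p = 0.90), with Control 2 the lowest library.

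**Figure D3:**
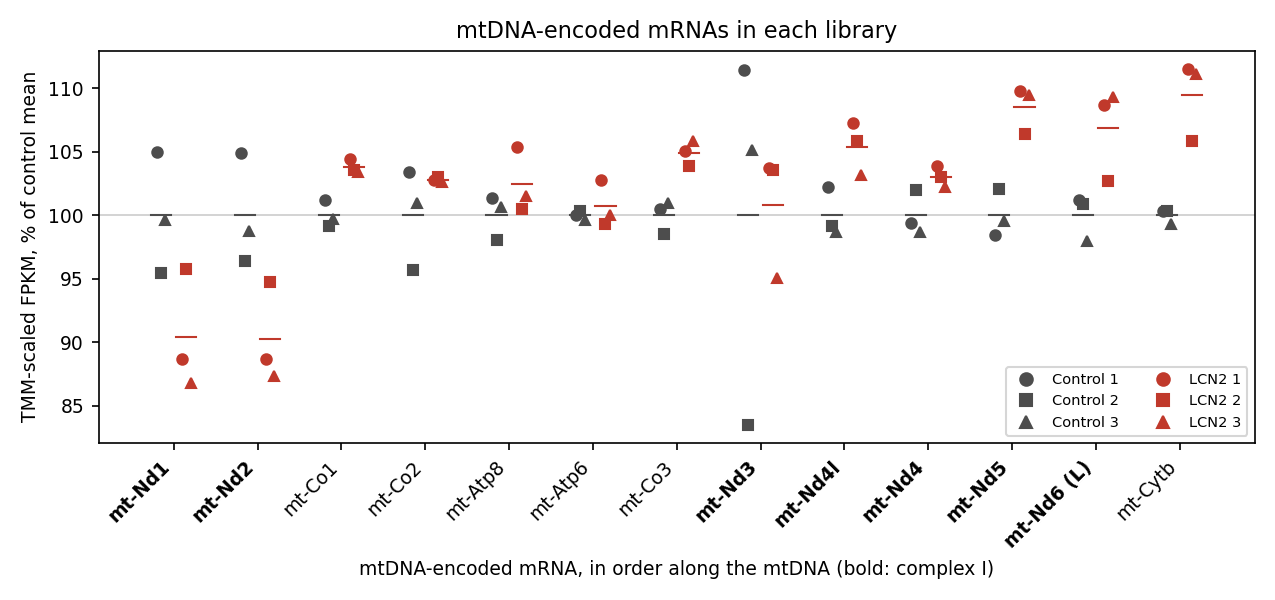
TMM-scaled FPKM of the 13 mtDNA-encoded mRNAs as a percentage of the control mean (vertical axis, not starting at 0), in order along the mtDNA, with complex I in bold and (L) marking the gene on the opposite strand. Points are libraries, grey for control and red for LCN2 with a symbol for each replicate number, and short lines are group means. The LCN2 libraries lie at 86.8% to 95.7% for mt-Nd1, 87.4% to 94.7% for mt-Nd2 and 106% to 110% for mt-Nd5.

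Ratios within a library do not depend on the scaling between libraries. The ratio of mt-Nd1 to mt-Nd5 was 5.09, 4.46 and 4.78 in the controls and 3.85, 4.30 and 3.78 with LCN2, a log2 difference of -0.26. That of mt-Nd2 to mt-Nd5 was 1.86, 1.65 and 1.74 in the controls and 1.41, 1.56 and 1.40 with LCN2, a difference of -0.27. In both, every LCN2 library was below every control. mt-Nd1 over mt-Co1, a cytochrome c oxidase mRNA, was also lower in each LCN2 library (0.461 to 0.502) than in each control (0.523 to 0.563). For each of these 3 ratios the two-sided exact permutation p was 0.10, the smallest that 3 against 3 libraries can give. After adjustment over the 6 ratios computed, the permutation p was 0.20. The ratios to mt-Nd5 set the mRNAs with negative differences over the mRNA called higher. Their separation therefore restates the differences above and is no separate evidence. The adjustment does not cover the choice of these pairs among all possible pairs.

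The ratio of mt-Nd1 to mt-Nd2 was 2.70 to 2.76 in all 6 libraries (exact permutation p = 0.80). These are the first mRNAs along the heavy-strand order, and their ratio differed between the groups by less than the spread between libraries. mt-Nd6 over mt-Nd5 (0.825 to 0.878) and mt-Nd4l over mt-Nd4 (0.663 to 0.704) overlapped between the groups (exact permutation p = 0.60 and 0.30).

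**Figure D4:**
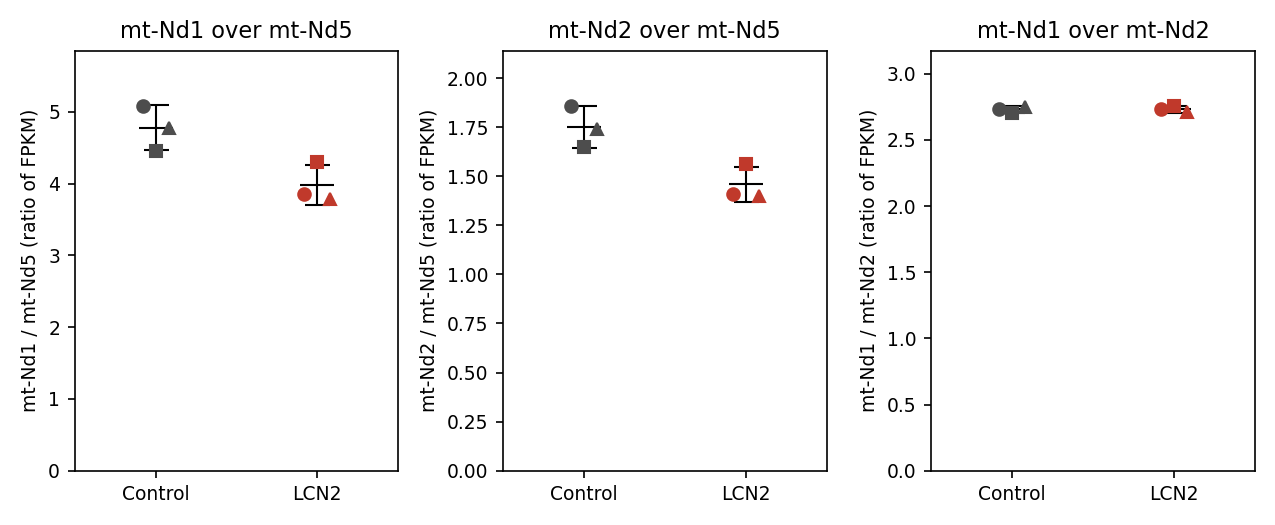
Ratio of FPKM within each library (vertical axes from 0) for mt-Nd1 over mt-Nd5, mt-Nd2 over mt-Nd5 and mt-Nd1 over mt-Nd2, by group. Points are libraries, with a symbol for each replicate number, and bars show the mean ± SD (n = 3). The first 2 ratios do not overlap between groups (4.46 to 5.09 against 3.78 to 4.30, and 1.65 to 1.86 against 1.40 to 1.56), and the last is 2.70 to 2.76 throughout.

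Of the 6 mtDNA mRNAs outside complex I, 1 was called by limma, mt-Cytb, the last gene of the heavy-strand order and the cytochrome b of complex III (0.13, SE 0.03, adjusted p = 0.033). It lost its call with the values as deposited (0.07, adjusted p = 0.22) and without Control replicate 1 or 3 or LCN2 replicate 1 or 3 (adjusted p of 0.088 to 0.14). In all, 10 of the 17 alternatives lost that call. Over the 17 the log2 fold change ran from 0.04 to 0.15 and the limma adjusted p reached 0.39. Against the sum of these 6 mRNAs, mt-Nd1 amounted to 17.7% to 18.9% in the controls and 15.3% to 17.1% with LCN2, and mt-Nd2 to 6.54% to 6.94% and 5.66% to 6.19%. The groups were apart in both, with an exact permutation p of 0.10 (0.26 adjusted over the 13 mRNAs). The same p and separation were found for mt-Nd5, whose log2 share differed by 0.07. They were also found for mt-Cytb and mt-Atp6, each set against the other mRNAs of that sum, with log2 differences of 0.09 and -0.05.

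Ndufa4 had 293, 273 and 289 FPKM in the controls and 236, 251 and 232 FPKM with LCN2, with no overlap. The log2 fold change of -0.19 (SE 0.06) gave a limma adjusted p of 0.052, not called. Over 12 forms of the TMM factor it ran from 0.046 to 0.052, and with other scalings from 0.011 as deposited to 0.047 with median-ratio factors. It dropped to 0.019 when Control replicate 2 was left out and to 0.043 when LCN2 replicate 2 was, and it was 0.13 to 0.16 when any other library was.

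The rest of the respiratory chain also had few calls. Among 42 tested nuclear genes of complexes II to V, a list that includes Ndufa4, limma called 2 higher and 4 lower. These are 4.76% and 9.52%, against 11.8% and 9.73% of all genes. The median log2 fold change of the list was -0.03. Cox7a2, a cytochrome c oxidase subunit, fell (-0.28, SE 0.04, adjusted p = 0.0069). Uqcrq, a complex III subunit, rose (0.42, SE 0.09, adjusted p = 0.020), and Atp5g1, which encodes the ring subunit of ATP synthase, fell (-0.24, SE 0.07, adjusted p = 0.041). These 3 are long-format rows, and the other calls of the list (Sdha, Sdhb and Atp5c1) are not. Atp5g1 lost its call without Control replicate 1 or 3 or LCN2 replicate 1 or 3 (adjusted p of 0.12 to 0.14), and Uqcrq without Control replicate 3 or LCN2 replicate 1 or 3 (0.058 to 0.080).

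Among 16 other genes for assembling complex I, limma called 2 higher and 2 lower (median -0.03). That is 25.0% in all, against 21.5% of all genes tested. Nfu1, an iron-sulphur cluster carrier, rose (0.37, SE 0.06, adjusted p = 0.011). Aifm1, which supports import into the intermembrane space, fell (-0.32, SE 0.06, adjusted p = 0.013). Acad9, a partner of Ndufaf1, fell (-0.23, SE 0.05, adjusted p = 0.021). Nfu1 and Aifm1 are long-format rows and Acad9 is not. Each lost its call without LCN2 replicate 1 (adjusted p of 0.053 to 0.069), Aifm1 also without Control replicate 3 (0.054), and Acad9 also without Control replicate 1 or 3 or LCN2 replicate 3 (0.060 to 0.077).

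Factors of mtDNA expression had 1 call higher and 2 lower among 28 (10.7%, against 21.5% of all genes tested, median -0.02). The mtDNA helicase Twnk fell (-0.32, SE 0.05, limma adjusted p = 0.0073), as did the single-strand binding protein Ssbp1 (-0.29, SE 0.07, adjusted p = 0.030), both long-format rows. Mterf3, a factor of mitochondrial transcription and ribosome assembly, rose (0.28, SE 0.06, adjusted p = 0.020). Ssbp1 and Mterf3 lost their calls without Control replicate 1 or 3 or LCN2 replicate 1 or 3 (0.062 to 0.091 and 0.057 to 0.074), and Mterf3 was at the threshold with the values as deposited (0.050). Regulators of mitochondrial biogenesis had 2 of 10 called, both higher (20.0%, against 11.8% of all genes called higher). These were Myc (0.66, SE 0.12, adjusted p = 0.014), a long-format row, and Gabpb1 (0.30, SE 0.08, adjusted p = 0.042). Myc lost its call without Control replicate 3 or LCN2 replicate 1 or 3 (adjusted p of 0.051 to 0.064). Gabpb1 lost its call with the values as deposited (0.089), with column sums (0.059) and without Control replicate 1 or 3 or LCN2 replicate 1 or 3 (0.11 to 0.13).

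Enzymes that share NADH or ubiquinone with complex I had 2 higher and 4 lower calls among 17 (median -0.08). That is 35.3%, against 21.5% of all genes tested. Sqor, which passes electrons from sulphide to ubiquinone, fell (-0.49, SE 0.06, limma adjusted p = 0.0058). Dhodh, of pyrimidine synthesis, fell (-0.36, SE 0.09, adjusted p = 0.032), and Coq7, of ubiquinone synthesis, rose (0.24, SE 0.06, adjusted p = 0.032). Coq7 lost its call with the values as deposited (adjusted p = 0.083), and both Coq7 and Dhodh lost theirs when any single library other than LCN2 replicate 2 was left out (0.051 to 0.11). Coq7 is not a long-format row, and Sqor and Dhodh stayed under 10 FPKM, where the formats cannot be told apart.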

How the data were processed

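RNA from 3 control and 3 LCN2-treated EO771 libraries was profiled by mRNA sequencing. The authors deposited 1 table of gene values, treated here as FPKM: its name speaks of raw counts, but the deposited values are not whole numbers, and the unit was inferred. The genome build was GRCm38, per the submitters' processing notes. No aligner, quantifier or strand setting is given in the sources used here. The number of reads is unknown, so no counting intervals are given.

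Values were divided by unweighted TMM factors (0.970 to 1.06, trims 0.3 and 0.05), and the 10309 genes averaging 1 FPKM or more were fitted as log2(FPKM + 1) with limma 3.58.1 in R 4.3.3, with a variance trend and no replicate term, two-sided. The fit was tested on simulated data. The exact form of TMM was picked because it gave the 2216 calls of an earlier analysis; 12 forms gave 2210 to 2241. Ratios were compared by exact permutation. Members and lists were chosen with earlier results of these data known.

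Named genes were every called member, every mt-Nd mRNA, up to 3 members of smallest p per class, both genes taken by name only (Ndufa4l2, listed at 0, has no test), and up to 3 called genes of each other list. Ndufs3, Ndufv1 and Ndufv3 were added after their values were seen. The number format of the rows was noticed after the fits, and the refit without the 1170 rows was added then. Alternatives were other scalings, pseudocount 0.1, filters, a replicate term and leaving out each library. For 1 nuclear subunit, values are not reported here.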

Additional observations from a re-analysis of the deposited data

How the results depend on the processing

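Scaling, filters and single libraries changed the calls, and none of the 35 named genes reversed a call under those of the 17 alternatives that held it. Leaving out 1 library gave 268 to 3160 calls over all genes. It gave 0 to 6 calls among nuclear subunits, 0 to 1 among assembly factors and 0 to 4 among mt-Nd mRNAs. The 3160 calls came without LCN2 replicate 2, against 2216 in the main fit. In the same setting 6 of 37 nuclear subunits, 0 of 8 assembly factors and 4 of 7 mt-Nd mRNAs were called. Gains without that library were therefore not confined to complex I, and whether they were larger there was not tested. With the values as deposited, 7 of 37 nuclear subunits, 1 of 8 assembly factors and 2 of 7 mt-Nd mRNAs were called, all lower. Over all 10309 genes that setting called 2373. With column sums 3 nuclear subunits, 1 assembly factor and 2 mt-Nd mRNAs were called, again all lower, beside 2258 of all genes. No mt-Nd mRNA was called with the filter at 0.1 FPKM (0) or without a filter (0). Falls made up 57.9% of calls with column sums and 47.2% with median-ratio factors.

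A replicate block gave 262 calls over all genes, 0 among nuclear subunits and 0 among mt-Nd mRNAs. The labels do not say whether a shared number marks a shared culture or day. Deviations of same-numbered libraries correlated at -0.22, -0.26 and 0.0086. With so few libraries these values cannot decide whether the libraries were paired.

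An alternative added after seeing the data left out the 1170 long-format rows. It gave 614 calls among 9139 genes, 1 among nuclear subunits and 0 among mt-Nd mRNAs (mt-Nd5 0.11, adjusted p = 0.064). Since 993 of the rows left out were calls, adjusted p-values of the rest rise by construction. Over the 35 named genes that were tested, 457 values kept their side of the threshold, 100 lost a call and 26 gained one. Read depth is unknown, so its limits cannot be given.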

Other observations

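Among the 15 genes outside complex I that were named from the comparison lists, 8 are long-format rows: Aifm1, Atp5g1, Cox7a2, Myc, Nfu1, Ssbp1, Twnk and Uqcrq. All 15 were named because they were called, and 993 of the 2216 calls over all genes are long-format rows. Over the whole table, 48.8% of the 1170 long-format genes were called lower and 36.1% higher, against 3.45% and 10.3% of the other 5276 tested genes that reached 10 FPKM. The median log2 fold changes were -0.23 and 0.02. Of 657 such genes with an absolute log2 fold change from 0.3 to 0.5, 80.5% were in the long format, and of 1845 from 0.1 to 0.2, 2.17%. These values describe how the table was written. Whether the long-format values differ from what the same reads would give in the common format was not tested, and the calls on these rows may bear checking against the reads.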
